A study of Mus musculus with 4 samples.

Results

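The cell cycle genes described here are a list of 54 genes out of 32285 in the count table: 17 that act in S phase, 35 that act in or prepare mitosis, and 2 chromatin and microtubule genes, Hmgb2 and Stmn1, that rise in dividing cells but are also used outside the cycle. The list names genes by their known part in the cell cycle, and all 54 members had counts. Their UMIs (unique molecular identifiers, 1 per captured mRNA molecule) were read in sorted CD45+ cells of EO771 tumors, a mouse mammary carcinoma line grown orthotopically in female C57BL/6 mice. Tumors came from 2 Csf1rfl/fl mice and 2 Lyve1CreCsf1rfl/fl mice, in which Cre driven from the Lyve1 locus deletes the floxed receptor for colony stimulating factor 1. All 4 mice carried the floxed alleles, the controls had no Cre, and tumors were taken at 1.5 cm3. Lyve1 is also active in lymphatic endothelium, so Cre is not limited to macrophages. Each of 2 Chromium runs pooled 1 tumor of each genotype, told apart by antibody hashtags, so that run 1 and run 2 each hold 1 pair.

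A dividing cell copies its DNA in S phase and separates the copies in mitosis. Before S phase the MCM2 to MCM7 helicase is loaded on DNA with the help of Cdc6, and Gins2 is part of the complex that activates it. PCNA then holds the polymerase on DNA, ribonucleotide reductase (Rrm1, Rrm2), Tyms and Tk1 supply nucleotides, and Uhrf1 and Hells carry DNA methylation and chromatin over to the new strand. At entry to mitosis, Cdk1 with cyclins A2, B1 and B2 starts chromosome condensation and spindle assembly, and the complex that uses Ube2c and Cdc20 destroys the cyclins at the end. Neutrophils leave the bone marrow as cells that no longer divide, monocytes divide little, and lymphocytes divide in bursts after antigen or cytokine.

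Many S phase genes are switched on by E2F factors, while mitosis genes often carry a CCAAT box (bound by NF-Y) and a CHR element. The following 120 bases lie just before the start of 5 members, read from the RefSeq promoter table of build GRCm38.p6 (mm10) and shown 5′ to 3′ on the strand of the gene. They are given because the S phase genes and the mitosis genes are treated apart throughout. Capitals mark CCAAT, the CHR letters TTTGAA and the E2F letters, on either strand. The E2F letters were TTCCCGC, the variant that reads TTCGCGC, the variant with TTGCCGC in its place, and the form TTGGCGC seen in Mki67. Pcna lies on the minus strand at chr2:132253181-132253300, Mcm5 on the plus strand at chr8:75109389-75109508, Cdk1 on the minus strand at chr10:69352913-69353032, Top2a on the minus strand at chr11:99024190-99024309 and Mki67 on the minus strand at chr7:135716380-135716499.
Pcna: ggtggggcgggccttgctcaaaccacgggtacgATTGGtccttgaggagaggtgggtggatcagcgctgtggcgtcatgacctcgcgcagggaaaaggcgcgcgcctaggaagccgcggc
Mcm5: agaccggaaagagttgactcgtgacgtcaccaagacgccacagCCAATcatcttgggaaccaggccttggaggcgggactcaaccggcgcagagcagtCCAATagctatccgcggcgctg
Cdk1: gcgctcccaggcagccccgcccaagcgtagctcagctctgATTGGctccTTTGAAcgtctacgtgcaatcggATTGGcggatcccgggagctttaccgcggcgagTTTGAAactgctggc
Top2a: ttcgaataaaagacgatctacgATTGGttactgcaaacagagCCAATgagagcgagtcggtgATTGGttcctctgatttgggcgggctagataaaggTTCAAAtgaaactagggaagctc
Mki67: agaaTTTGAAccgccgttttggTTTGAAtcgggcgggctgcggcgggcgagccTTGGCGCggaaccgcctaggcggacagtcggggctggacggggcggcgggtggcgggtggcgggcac
A promoter was listed for 14 of 17 S phase members and for 31 of 35 mitosis members. Over the 250 bases before the start, the E2F letters were found in 8 of the 14 S phase promoters (57.1%) and in 6 of the 31 mitosis promoters (19.4%), against 9.01% of 27025 genes. CCAAT was found in 71.4% of the S phase promoters and in 80.6% of the mitosis promoters, against 37.5% of all genes. The CHR letters were found in 1 S phase promoter (7.14%) and 11 mitosis promoters (35.5%), against 18.3% of all genes. A match is a match of letters and not evidence that a factor binds there.

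Of 28429 kept cells, those in 12 gates built on lineage markers were used: 6033 neutrophils, 4123 monocytes, 1058 C1q macrophages, 487 Cd209a dendritic cells, 246 cDC1, 1692 mature dendritic cells, 525 plasmacytoid dendritic cells, 1523 NK cells, 2964 CD8 T cells, 164 Foxp3-negative CD4 T cells, 1420 regulatory T cells and 241 tumor or stromal cells. The gates held their defining genes: S100a8 was at 523 UMIs per 10000 in neutrophils and at 6.08 or less elsewhere, C1qa at 23.4 in C1q macrophages, Xcr1 at 3.30 in cDC1, Ncr1 at 3.35 in NK cells and Foxp3 at 4.03 in regulatory T cells. Krt8, an epithelial keratin, was at 1.57 in the tumor or stromal gate and at 0.0161 or less in the others. No member was used by a gate. Depth differed widely, from a median of 2216 UMIs per cell in neutrophils and 4890 in CD8 T cells to 11820 in cDC1 and 45248 in the tumor or stromal gate. The tumors held 4771 to 8699 kept cells and 27686362 to 56715743 UMIs each. Levels are UMIs of a gene per 10000 UMIs of all genes in that gate and tumor, and an error after a mean is the SD over the 4 tumors of both genotypes. Levels are 3′ tag counts, so they are compared between gates and not between genes.

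The mitosis members, summed, were highest in regulatory T cells, CD8 T cells and the tumor or stromal gate, intermediate in NK cells, cDC1 and Foxp3-negative CD4 T cells, and lowest in plasmacytoid dendritic cells. In regulatory T cells the sum was 35.02 and 41.3 UMIs per 10000 in the Csf1rfl/fl tumors of run 1 and run 2, and 41.8 and 44.4 in the Lyve1CreCsf1rfl/fl tumors (mean 40.6 ± 3.98, n = 4). In CD8 T cells it was 28.7, 45.1, 28.5 and 37.5 in the same order (34.9 ± 7.96). These ranges overlapped, and both lay above every tumor's value in cDC1, macrophages, monocytes and neutrophils.

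NK cells were at 26.7, 16.8, 20.7 and 29.5 (mean 23.4 ± 5.75), and cDC1 at 21.4, 24.8, 13.6 and 12.3 (18.04 ± 6.07). The 2 ranges overlapped. Foxp3-negative CD4 T cells were at 15.0, 14.7, 23.9 and 13.1, but in the run 1 Lyve1CreCsf1rfl/fl tumor 89.3% of their mitosis UMIs came from the top 10% of 42 cells. Cd209a dendritic cells (5.76 ± 0.77), C1q macrophages (4.03 ± 1.34), mature dendritic cells (3.84 ± 2.23), monocytes (3.65 ± 0.53) and neutrophils (3.20 ± 0.66) followed, neighbours in this order having overlapping tumors. Plasmacytoid dendritic cells were lowest at 2.07 ± 0.25. Of the mature dendritic cells, only the run 1 Csf1rfl/fl tumor stood apart, at 7.07 against 2.13 to 3.54 in the others. Its highest cell held 597 mitosis UMIs, and without the cells called doublets by Scrublet that tumor was at 2.24.

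**Figure D1:**
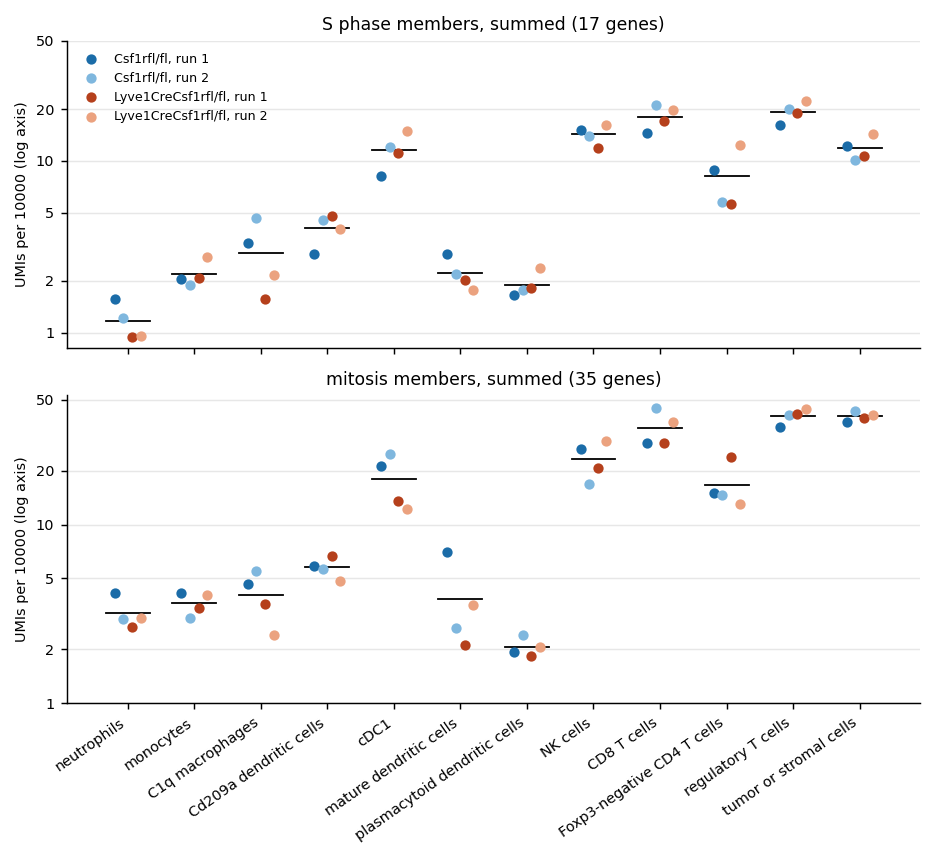
Summed UMIs of the 17 S phase members (top) and 35 mitosis members (bottom) per 10000 UMIs, by gate, on log axes. Points are the 4 tumors, coloured by genotype and run, and bars are their means. Regulatory T cells, CD8 T cells and the tumor or stromal gate reach means of 34.9 to 40.6 for mitosis, while neutrophils are at 3.20 and plasmacytoid dendritic cells at 2.07.

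The S phase sum followed much of the same order, with changes at both ends. It was 19.4 ± 2.61 in regulatory T cells, 18.05 ± 2.96 in CD8 T cells, 14.3 ± 1.84 in NK cells and 11.5 ± 2.79 in cDC1, and 1.18 ± 0.30 in neutrophils. Neutrophils were the lowest gate here, below plasmacytoid dendritic cells in every tumor (0.947 to 1.58 against 1.65 to 2.36), while for mitosis they lay above them in every tumor. The tumor or stromal gate also changed place: its mitosis sum was 40.5 ± 2.49, as in regulatory T cells, but its S phase sum was only 11.8 ± 1.93. Its S phase sum was therefore 0.293 ± 0.053 of its mitosis sum, between 0.231 and 0.349 in the 4 tumors, while in regulatory T cells it was 0.475 ± 0.024, between 0.452 and 0.505. The tumors of these 2 gates did not overlap. In CD8 T cells the ratio was 0.523 ± 0.053 and overlapped that of regulatory T cells. In NK cells it was 0.631 ± 0.135, from 0.548 upward, and so lay above regulatory T cells in every tumor.

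Single members showed the same order with exceptions that the sums hide. Among the 11 leukocyte gates, 14 of 17 S phase members, 31 of 35 mitosis members and both other members had their highest mean in regulatory T cells. Mki67, the gene of the Ki-67 antigen that coats mitotic chromosomes, was at 3.38, 5.12, 4.56 and 4.97 UMIs per 10000 in regulatory T cells (mean 4.51) and at 2.27, 4.31, 2.75 and 3.66 in CD8 T cells. It was at 2.37 in NK cells, 1.37 in cDC1, 0.292 in C1q macrophages, 0.215 in monocytes, 0.129 in neutrophils and 0.0348 in plasmacytoid dendritic cells. Top2a, the topoisomerase that untangles chromosomes, was at 2.72, 4.46, 3.90 and 5.20 in regulatory T cells and 0.107 on average in neutrophils. Cdk1, the mitotic kinase, was at 0.711, 0.740, 0.927 and 0.800 in regulatory T cells and at 0.0302 on average in neutrophils. Ccnb1, its cyclin, was even across regulatory T cells, at 0.462 to 0.506, and reached only 0.133 in NK cells and 0.125 in cDC1.

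Of the S phase members, Mcm5, a helicase subunit, was at 0.878, 1.31, 0.982 and 1.30 in regulatory T cells, 0.623 to 1.24 in CD8 T cells and 0.0391 on average in neutrophils. Pcna was the flattest of the 7 genes followed in every gate: it was at 2.67 in regulatory T cells, 2.80 in CD8 T cells and 2.53 in NK cells, and still at 0.872 in monocytes and 0.557 in neutrophils. Stmn1, which destabilizes microtubules, was at 4.97, 3.78, 5.47 and 4.27 in regulatory T cells, 4.49 on average in CD8 T cells and 0.227 in neutrophils, but at only 1.28 in Foxp3-negative CD4 T cells and 1.18 in the tumor or stromal gate.

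**Figure D2:**
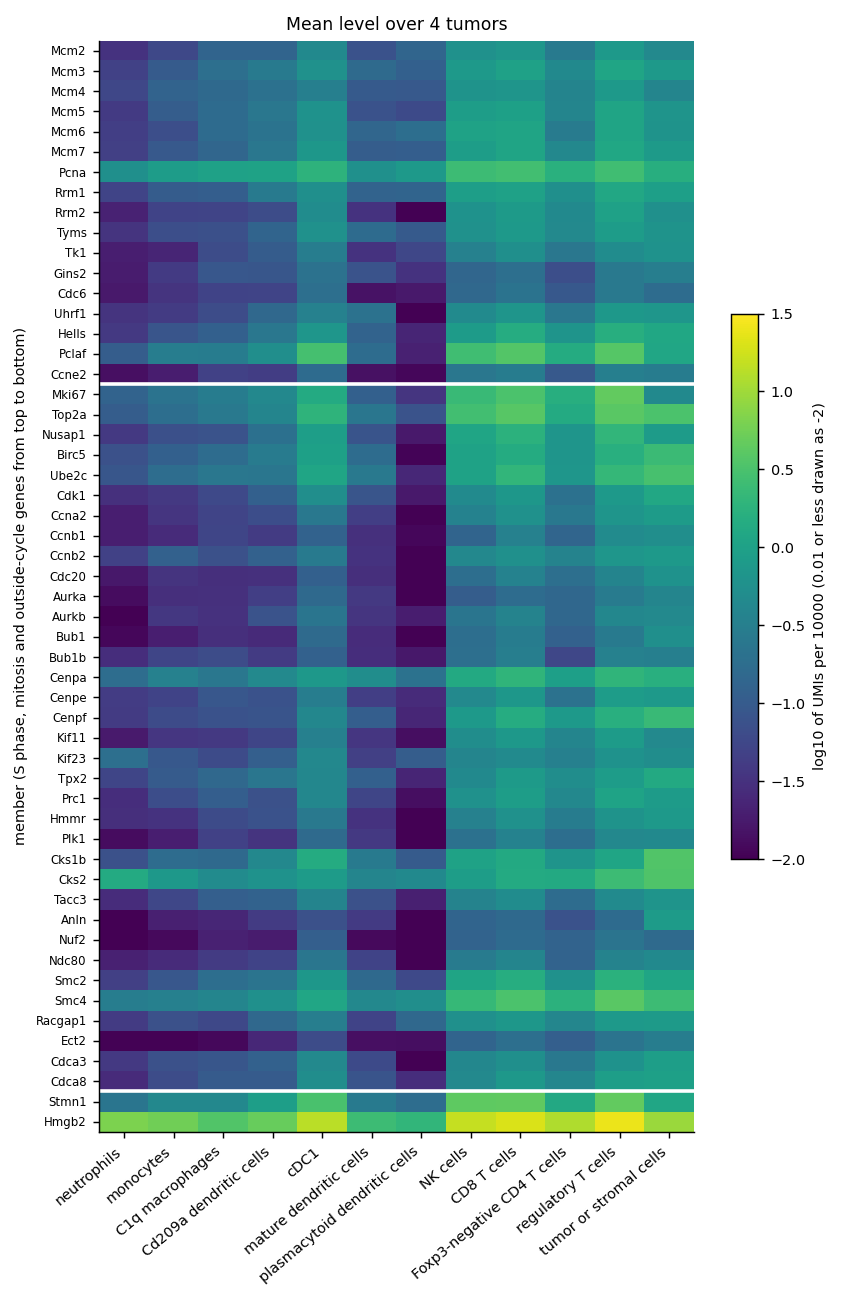
Mean level over 4 tumors of all 54 members (rows, in 3 blocks: 17 S phase, 35 mitosis, 2 outside the cycle) in the 12 gates (columns), as log10 of UMIs per 10000. Nearly all rows are bright in NK, CD8, regulatory T and tumor or stromal cells and dark in neutrophils and plasmacytoid dendritic cells, while Cks2, Pcna, Smc4 and Hmgb2 keep a level in every gate.

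By role, the MCM helicase subunits Mcm2 to Mcm7 lay between 0.767 and 1.21 UMIs per 10000 in regulatory T cells and at 0.0549 or less in neutrophils. The nucleotide enzymes Rrm1, Rrm2, Tyms and Tk1 went from 0.512 to 1.25 in regulatory T cells, Hells was at 1.58 and Uhrf1 at 0.743. Cdc6, Gins2 and Ccne2 were at 0.257 to 0.328. Among the mitotic cyclins, Ccna2, Ccnb1 and Ccnb2 were at 0.481 to 0.694, and Ube2c (2.13) and Cdc20 (0.374) are the activators of cyclin destruction.

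The mitotic kinases Plk1, Aurka and Aurkb were at 0.286 to 0.427 in regulatory T cells, and Birc5 (1.64) and Cdca8 (0.903) are partners of Aurkb on centromeres. The checkpoint kinases Bub1 and Bub1b were at 0.274 and 0.343. Of the kinetochore members, Cenpa and Cenpf were at 1.95 and 1.62, and Cenpe, Nuf2 and Ndc80 at 0.870, 0.225 and 0.373. The spindle members Kif11, Tpx2, Nusap1, Hmmr and Tacc3 went from 0.470 to 1.99. Prc1 (1.09), Racgap1 (0.763), Kif23 (0.613), Ect2 (0.223) and Anln (0.165), which act when the cell divides in 2, and the condensins Smc2 (1.72) and Smc4 (3.96) complete the list with Cdca3 (0.616). Set against its own level in neutrophils, the mean in regulatory T cells was 1.82 times as high for Cks2, 3.27 for Kif23, 3.89 for Hmgb2 and 4.80 for Pcna, and at least 10.8 times as high for each of the other 50 members.

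The tumor or stromal gate differed from the dividing T cells in which mitosis genes it held. In 23 of 35 mitosis members its mean was above that of regulatory T cells, but in only 2 of 17 S phase members. Cks1b, a small subunit of cyclin-dependent kinases, was at 3.80, 3.39, 4.06 and 3.13 against 1.12, 0.886, 1.52 and 1.11 in regulatory T cells, with no overlap. Cks2, its paralog, was at 3.32, 3.51, 3.80 and 2.95 against 2.51, 2.09, 3.01 and 2.36, with overlap. Mki67 went the other way, at 0.433, 0.455, 0.436 and 0.535 in the tumor or stromal gate, about the level of Cd209a dendritic cells (0.431) although Top2a was at 3.25. These cells passed a CD45+ sort and hold few CD45 transcripts by the rule of their gate.

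Among neutrophils, few members accounted for most of the UMIs. Cks2 alone gave 42.3% of their mitosis UMIs, against 6.10% in regulatory T cells, and was at 1.45, 1.17, 1.53 and 1.33 UMIs per 10000, overlapping the range of CD8 T cells (1.24 to 1.67). Hmgb2, a DNA-bending protein of the HMG family, was at 6.10 to 6.86 in neutrophils and 4.48 to 6.42 in monocytes. In neutrophils 17.8% of the cells were called doublets by Scrublet (29.4% in the run 1 Csf1rfl/fl tumor), and without them the S phase sum fell from 1.18 to 0.826 and the mitosis sum was 2.81. What free RNA in the droplets adds to these levels was not tested.

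Counted by cells, regulatory T cells again lay highest among the leukocyte gates for mitosis members, but the background was high and gates lower in the order changed places. Each cell was thinned to 2000 UMIs at random, since deeper cells show more genes, and shallower cells were left out (2555 of 6033 neutrophils, 181 of 2964 CD8 T cells, 232 of 1420 regulatory T cells). At least 1 mitosis UMI was found in 81.2% ± 1.80 of regulatory T cells, 73.1% ± 2.11 of CD8 T cells, 63.2% ± 3.05 of NK cells, 59.1% ± 4.50 of Foxp3-negative CD4 T cells and 53.3% ± 2.13 of cDC1, but also in 35.7% ± 2.92 of neutrophils. Monocytes (33.5% ± 1.83), C1q macrophages (30.8% ± 3.27) and mature dendritic cells (28.6% ± 3.06) lay near the neutrophils, as did plasmacytoid dendritic cells (30.2% ± 5.73). Unthinned, the shares were 87.5% in regulatory T cells, 87.0% in CD8 T cells, 76.4% in NK cells, 85.1% in cDC1 and 43.2% in neutrophils. A single UMI therefore does not mark a dividing cell. At least 1 UMI of each list was found in 58.9% ± 1.54 of regulatory T cells and 6.70% ± 1.36 of neutrophils.

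At least 5 mitosis UMIs, a limit set after the neutrophil value was seen, were found in 33.9% ± 1.74 of regulatory T cells, at 32.2%, 33.1%, 34.1% and 36.2% in the 4 tumors, and in 28.4% ± 3.84 of CD8 T cells, at 25.97%, 33.5%, 24.96% and 29.3%. In neutrophils the share was 0.971% ± 0.562, or 40 of 3478 cells. NK cells spread most, with 22.3% and 8.60% in the Csf1rfl/fl tumors of run 1 and run 2 and 12.8% and 19.4% in the Lyve1CreCsf1rfl/fl tumors. The exact 95% binomial intervals of these Csf1rfl/fl tumors were 18.2 to 26.8% and 5.88 to 12.04%, and they cover counting error within each tumor only. cDC1 were at 16.3% to 25.5%, on 25 to 116 cells a tumor. C1q macrophages (1.76% ± 1.07), monocytes (1.89% ± 0.68) and mature dendritic cells (1.04% ± 0.62) were near the neutrophils. In plasmacytoid dendritic cells 1 of 523 cells (0.191%, interval 0.005 to 1.06%) reached the limit. Unthinned, 41.7% of regulatory T cells, 42.5% of CD8 T cells and 2.94% of neutrophils did.

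**Figure D3:**
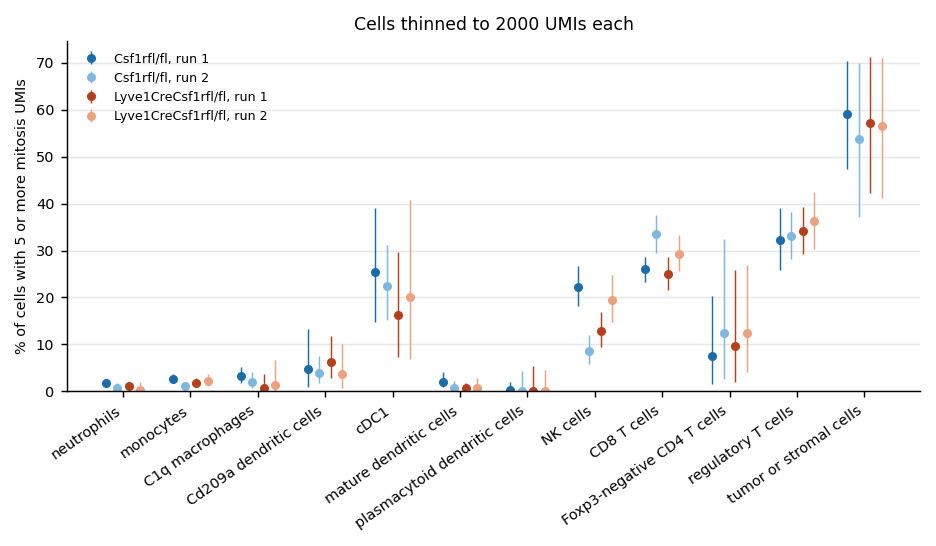
Share of cells (%) with 5 or more mitosis UMIs after thinning each cell to 2000 UMIs, by gate and tumor. Bars are exact 95% binomial intervals of each tumor. Regulatory T cells lie at 32.2% to 36.2% and CD8 T cells at 24.96% to 33.5%, while neutrophils reach at most 1.67%.

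Differences in 6 pairs of gates were tested for all genes, on UMIs summed per gate and tumor with the tumor as a block, by the quasi-likelihood test of edgeR, and p-values were adjusted over all genes tested by the Benjamini-Hochberg method. Cells of both gates come from the same 4 tumors.

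The largest separation was between cDC1, which take up dead cells and present their antigens to CD8 T cells, and mature dendritic cells, the migratory state marked by Ccr7. All 54 members were tested, 53 were higher in cDC1 and 0 were lower, against 28.1% of 8834 genes higher and 28.6% lower. The median log2 fold change was 2.27 for S phase members and 2.47 for mitosis members, against -0.03 over all genes. Pclaf, which binds PCNA, was at 2.47, 3.01, 2.79 and 3.29 UMIs per 10000 in cDC1 and at 0.341, 0.079, 0.201 and 0.074 in mature dendritic cells (log2 fold change 3.94 ± 0.30 SE, adjusted p = 8.45e-08, higher in 4 of 4 tumors). Rrm2, the regulated ribonucleotide reductase subunit (3.84), Stmn1 (3.45), Mki67 (3.43), Nusap1, a spindle protein (3.39), and Ccne2, cyclin E2 (3.29), followed, each higher in 4 of 4 tumors. Cenpa, the centromere histone, moved least among those called (0.40 ± 0.15, adjusted p = 0.0354). Anln, a scaffold of the cleavage furrow, was the 1 member that did not pass (1.11 ± 0.63, adjusted p = 0.153). One cDC1 sum, of the run 2 Lyve1CreCsf1rfl/fl tumor, rests on 25 cells, and the median depth was 11820 against 4715 UMIs a cell.

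Other cycle genes moved with them: 38 of 46 other S phase genes tested and 39 of 42 other mitosis genes were higher in cDC1, and 2 and 0 were lower. Pbk, a mitotic kinase (4.27 ± 0.56), and Esco2, a cohesin acetyltransferase (3.69 ± 0.54), were among them. Of the brakes of the cycle, 5 of 14 tested were higher and 6 lower. Ccng2, Btg1 and Cdkn1a (p21) were lower, by log2 changes of -2.96, -1.98 and -1.75, and Klf2, a quiescence factor of T cells, was higher (1.54). Of the G1 drivers, E2f3 (2.41) and Cdk4 (1.50) were higher and Ccnd2, cyclin D2, lower (-2.53).

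Regulatory T cells were compared with Foxp3-negative CD4 T cells, their nearest relatives. Cells of the latter gate held Cd4 UMIs but none of Foxp3, Ikzf2 or the Cd8 genes, and shallow cells meet such absences more easily. The median depth was 3014 UMIs a cell in it against 3773 in regulatory T cells, and the part of depth in the difference was not tested. Of 54 members tested, 33 were higher in regulatory T cells (10 S phase, 21 mitosis, both others) and 0 lower, against 3.12% of 8422 genes higher and 2.89% lower. All 54 fold changes were positive, with medians of 1.28 (S phase) and 1.22 (mitosis) against 0.002 over all genes. Cdk1 was at 0.711, 0.740, 0.927 and 0.800 UMIs per 10000 in regulatory T cells and at 0.126, 0.267, 0.337 and 0.088 in Foxp3-negative CD4 T cells, without overlap (2.01 ± 0.35, adjusted p = 0.00247). The spindle checkpoint kinase Bub1b (2.53 ± 0.54), the kinetochore motor Cenpe (2.13 ± 0.40), Mcm6 (1.85 ± 0.34), Stmn1 (1.81 ± 0.24) and Ube2c (1.71 ± 0.27) also rose in 4 of 4 tumors. The other gate holds 27 to 49 cells a tumor, and markers of other lineages were uneven in it. Markers of Cd209a dendritic cells were summed at 2.08, 48.5, 2.63 and 42.4 UMIs per 10000 in its 4 tumors, in the order used above, against 11.2 to 22.2 in regulatory T cells, monocyte markers at 5.73 to 26.2 against 4.28 to 7.07, and neutrophil markers at 4.95 to 26.6 against 5.44 to 10.3. Of its cells 14.02% were called doublets, and without doublets in both gates 34 members were called. The count of members called was 12 under a stricter gate, 21 by DESeq2, 44 with no filter on low counts and 16 without either Lyve1CreCsf1rfl/fl tumor, always with 0 lower. Here and in the pairs below, the share of all genes called under such settings is not given. A changed count may therefore be a change over all genes and not one of the members.

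Outside the members, 7 of 45 other S phase genes and 10 of 46 other mitosis genes were higher in regulatory T cells and 0 lower. Lig1, the ligase of the lagging strand, rose by a log2 change of 1.52 ± 0.30. Kif20a, a motor of cell division, had 145 UMIs in regulatory T cells and 0 in Foxp3-negative CD4 T cells, at least 4.28-fold higher against 3 UMIs over that group. It passed the filter through regulatory T cells alone. Of the brakes, 2 of 14 were lower and 0 higher: the antiproliferative genes Btg2 (-1.30 ± 0.20) and Btg1 (-0.61 ± 0.11). Ccnd3, cyclin D3, was the 1 G1 driver of 10 that passed, and it was lower (-0.93 ± 0.19).

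Between regulatory T cells and CD8 T cells few members differed. Of 54 tested, 3 were higher in regulatory T cells and 2 lower, less than the 12.9% and 13% of 10686 genes. Cks2 was at 2.51, 2.09, 3.01 and 2.36 in regulatory T cells and 1.31, 1.67, 1.24 and 1.35 in CD8 T cells, without overlap (0.71 ± 0.11, adjusted p = 0.00035). Aurka, the spindle pole kinase (0.61 ± 0.16, adjusted p = 0.0108), and Mki67 (0.37 ± 0.08, adjusted p = 0.00233) were also higher in 4 of 4 tumors. Pcna was lower in 4 of 4 (-0.19 ± 0.07, adjusted p = 0.0428), and Cks1b in 3 of 4 (-0.33 ± 0.11, adjusted p = 0.0441). The medians were 0.03 for S phase and 0.06 for mitosis members. Without the run 2 Csf1rfl/fl tumor 10 members were called, all higher in regulatory T cells, 3 members were called without any 1 of the others, 10 under a stricter gate, 8 without Scrublet doublets and 2 by DESeq2.

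Genes that set the pace of G1 also differed between the 2 T cell gates. Of 10 G1 drivers, 2 were higher in regulatory T cells, Ccnd2 (1.09 ± 0.08) and Cdk2 (0.57 ± 0.14), and 3 lower, among them Cdk6 (-0.50 ± 0.07) and Ccnd3 (-0.35 ± 0.09). Of 15 brakes, 3 were higher and 4 lower. Cdkn1b, the inhibitor p27, was higher (0.45 ± 0.08), and Cdkn2a, which encodes p16 and p19, was lower (-1.10 ± 0.18). Of 48 other S phase genes 1 was higher, E2f2 (0.72 ± 0.13), and 7 lower, with Rpa2, which coats single-stranded DNA, at -0.96 ± 0.10. Of 48 other mitosis genes 2 were higher and 4 lower.

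Of the members, 19 were higher in CD8 T cells than in NK cells and 0 lower, of 54 tested (11.7% of 10633 genes higher and 13.3% lower). Of these, 15 were mitosis and 4 S phase members, the medians being 0.51 and 0.25. Ccnb1 was at 0.251, 0.475, 0.233 and 0.405 UMIs per 10000 in CD8 T cells and 0.158, 0.073, 0.112 and 0.188 in NK cells, without overlap (1.25 ± 0.24, adjusted p = 0.00176). Ube2c (0.92 ± 0.22), the kinetochore protein Cenpf (0.84 ± 0.23), the mitotic kinase Plk1 (0.76 ± 0.24), Hells (0.76 ± 0.11) and Tpx2, which activates Aurka (0.71 ± 0.20), were also higher in 4 of 4 tumors. Of the other mitosis genes 25 of 48 were higher and 0 lower, with Nek2 (1.10 ± 0.23) and Aspm (1.04 ± 0.21) among them, and of the other S phase genes 8 of 48 and 0. Cdkn2a was higher by a log2 change of 3.58 ± 0.30 and Klf2 lower (-1.22 ± 0.17). The count of members was 36 without the run 1 Csf1rfl/fl tumor, 11 without the run 2 one, 8 without the run 1 Lyve1CreCsf1rfl/fl tumor, 34 without Scrublet doublets, 39 with no filter and 9 by DESeq2, with 0 lower each time.

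Between C1q macrophages and monocytes, some members of both lists were higher in C1q macrophages, but the sums did not keep 1 direction. The S phase sum was 3.30 and 4.67 UMIs per 10000 in C1q macrophages against 2.05 and 1.90 in monocytes of the Csf1rfl/fl tumors. In the Lyve1CreCsf1rfl/fl tumors it was lower in C1q macrophages, at 1.57 and 2.15 against 2.07 and 2.77. The mitosis sum was higher in C1q macrophages except in the run 2 Lyve1CreCsf1rfl/fl tumor (2.41 against 4.04). Of 51 members that passed the filter on low counts, 15 were higher in C1q macrophages and 3 lower (11.6% of 10016 genes higher and 15.7% lower). Higher were 8 of 17 S phase members (median 0.83) and 7 of 32 mitosis members (median 0.46). Mcm6 (1.41 ± 0.25), Mcm2 (1.40 ± 0.26), Tk1 (1.60 ± 0.44), Gins2 (1.17 ± 0.35) and Tacc3, a spindle protein (0.94 ± 0.28), were higher in 4 of 4 tumors, and only 8 of the 18 members called moved 1 way in all tumors. Lower were Hmgb2, at 3.41 to 3.70 UMIs per 10000 against 4.48 to 6.42 (-0.69 ± 0.08, adjusted p = 2.98e-06), Cks2 (-0.69 ± 0.11) and Cenpa (-0.52 ± 0.14).

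Of 14 brakes tested, 7 were lower in C1q macrophages and 1 was higher. Cdkn2d, the inhibitor p19 of Cdk4 and Cdk6, was lower (-1.52 ± 0.13), as was Ccnd3 (-1.42 ± 0.10), while Myc was higher (1.003 ± 0.18). Other S phase genes were higher in 15 of 40 and lower in 1, and other mitosis genes in 8 of 26 and 0. The count of members fell from 18 to 8 without the run 2 Csf1rfl/fl tumor, in which the S phase sum of C1q macrophages was highest, and to 11 without the run 1 Csf1rfl/fl tumor. It was 29 without the run 2 Lyve1CreCsf1rfl/fl tumor and 5 by DESeq2.

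Neutrophils and monocytes were compared on 2 scales, which differ for the S phase members. In UMIs per 10000 the S phase sum was 0.947 to 1.58 in neutrophils and 1.90 to 2.77 in monocytes, without overlap, and the mitosis sum was 2.68 to 4.17 and 3.01 to 4.13, with overlap. On edgeR's TMM scale, which sets the middle genes equal, 4 of 52 members tested were higher in neutrophils and 5 lower, against 30.4% and 27.6% of 10783 genes. Higher were Kif23, a motor of the midbody, at 0.155, 0.230, 0.139 and 0.226 UMIs per 10000 against 0.074, 0.083, 0.090 and 0.116 (1.78 ± 0.16, adjusted p = 1.12e-06), Cks2 (1.62 ± 0.11), Hmgb2 (0.98 ± 0.10) and Smc4, a condensin subunit (0.54 ± 0.12). Lower in 4 of 4 tumors were Aurkb (-1.05 ± 0.38), Mcm5 (-0.74 ± 0.24), Cks1b (-0.54 ± 0.17) and Mcm4 (-0.46 ± 0.18), and Pclaf was lower in 3 of 4. Without the run 1 Lyve1CreCsf1rfl/fl tumor the 4 higher calls were made and 0 lower ones. Brakes were higher in neutrophils in 8 of 14 and lower in 1: Tob1 (2.31 ± 0.16), Klf2 (2.27 ± 0.10), Btg2 (2.13 ± 0.13) and Btg1 (2.08 ± 0.13) led them. Of the G1 drivers 6 of 10 were lower and 0 higher, with E2f4 at -0.46 ± 0.14. Of the other S phase genes 5 of 41 were higher and 10 lower, and of the other mitosis genes 5 of 29 were higher and 2 lower. Among the latter, Cdc25b, the phosphatase that activates Cdk1 (2.76 ± 0.27), and Ccnf (2.14 ± 0.22) were higher, while Cdk1 itself was at 0.0302 in neutrophils and 0.0378 in monocytes. The fold changes on this scale lie above the ratios of UMIs per 10000. On that unscaled level Hmgb2 overlapped between these gates, and Smc4 turned direction, at 0.305 on average in neutrophils and 0.339 in monocytes, with overlap.

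**Figure D4:**
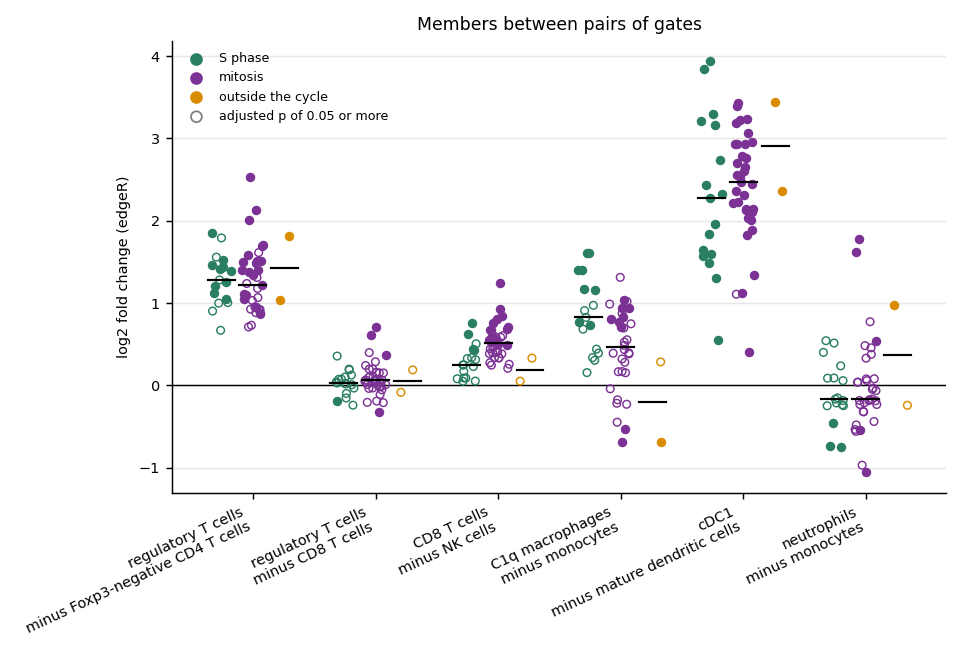
log2 fold changes (edgeR) of members that passed the filter in 6 pairs of gates, S phase, mitosis and outside-cycle members apart. Filled points have an adjusted p under 0.05, open points do not, and bars are medians. The medians of cDC1 minus mature dendritic cells lie at 2.27 and 2.47 and those of regulatory minus CD8 T cells at 0.03 and 0.06.

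Within a gate, cells that hold mitosis members were set against cells that hold none of either list. Cells named cycling were those with at least 2 mitosis UMIs, and cells named non-cycling those with 0 UMIs of all 52 S phase and mitosis members. These names stand for the split and do not show which cells divide. The members' own difference is set by the split and is not tested. In CD8 T cells this gave 2090 against 140 cells and in regulatory T cells 991 against 99, and 386 and 194 of the cycling cells held exactly 2 UMIs. Non-cycling cells were shallow, with a median of 2158 to 2809.5 UMIs per tumor against 5626.5 to 6602.5 in CD8 T cells, and 1796.5 to 2167 against 5096 to 5283 in regulatory T cells.

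Cycle genes outside the list were higher with the members in both T cell gates, but these counts are partly set by the filter and the split. A gene rare in the non-cycling cells, which were few and shallow, could pass the filter through the cycling cells alone. It could then be called higher but hardly lower, so the absence of lower calls is not support. This holds for the genes with 0 UMIs named below. In CD8 T cells 30 of 47 other S phase genes and 39 of 47 other mitosis genes were higher in cycling cells and 0 lower, against 7.84% of 9373 genes higher and 0.971% lower. Esco2 (825 UMIs against 0), Kif20b (850 against 0) and Dlgap5 (689 against 0) were at least 6.78-fold, 6.98-fold and 5.66-fold higher, taking 3 UMIs over the non-cycling cells as the floor. In regulatory T cells 28 of 44 and 35 of 43 were higher and 0 lower, against 9.31% of 7895 genes higher and 1.08% lower. Aspm, a spindle pole protein (486 UMIs against 0), Knl1 of the kinetochore (497 against 0) and Asf1b, a histone chaperone (348 against 0), were at least 4.90-fold, 5.01-fold and 3.51-fold higher. Btg1 was lower in cycling cells of both gates, by log2 changes of -0.63 ± 0.15 (adjusted p = 0.000672) and -0.90 ± 0.14 (adjusted p = 5.06e-09). Klf2 (-0.95 ± 0.25) and Ccnd2 (-0.74 ± 0.19) were lower in cycling CD8 T cells. The median over all genes was 0.22 and 0.21, so a rise of that size is that of the middle gene. Among cells of 3000 to 8000 UMIs, with at least 20 mitosis UMIs per 10000 against under 5 of both lists, 86 of 88 genes of these 2 lists were higher in CD8 T cells and 37 of 39 in regulatory T cells, a check added after the depths were seen. Cycling cells were still the deeper ones in it, with medians per tumor of 5635 to 5959 against 4047.5 to 4386 UMIs in CD8 T cells and 5269 to 5533 against 3580 to 4396 in regulatory T cells. This check also splits cells by the members, and genes could again pass the filter through the cycling cells alone. Its share of all genes called is not given, and its non-cycling regulatory T cells were 12 to 17 a tumor. Its counts are therefore not separate support. DESeq2 called 37 of 84 and 8 of 22 genes. The 69 and 63 genes of the full split became 45 without the run 1 Csf1rfl/fl tumor in CD8 T cells, and 28 and 38 without the run 1 or run 2 Lyve1CreCsf1rfl/fl tumor in regulatory T cells.

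In C1q macrophages, 319 cells named cycling and 234 named non-cycling were compared, with 150 of the former at exactly 2 UMIs. Here the split does not mark dividing cells well. Unthinned, at least 2 mitosis UMIs were found in 26.506% to 32.985% of C1q macrophages per tumor. They were also found in 14.406% to 24.056% of neutrophils, which were shallower (median 2216 against 5269 UMIs). The part of depth was not tested. At least 5 mitosis UMIs after thinning were found in 1.755% of C1q macrophages and 0.971% of neutrophils. No gene of the 2 lists passed the edgeR test, of 7 S phase and 1 mitosis gene that could be tested, against 1.55% of 4519 genes higher and 0.863% lower. Of these 8 genes, 3 were under an unadjusted p of 0.05, and DESeq2 gave an adjusted p for none of them. With a limit of 4 mitosis UMIs, 4 of 13 genes were higher.

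Genotype was tested in 7 gates, 2 tumors against 2, without the run as a block, and not in the other 5. No member and no other gene passed in any of them (0.0% of 6453 to 10542 genes, edgeR's quasi-likelihood test). With 2 tumors a genotype this test missed most changes of moderate size in simulated counts, so that the absence of calls does not show that levels were alike. Values of 2 tumors against 2 also often fail to overlap where genotypes do not differ. Non-overlap of sums, shares or marker lists below is therefore a description and not a test. At an unadjusted p under 0.05 stood 14 of 37 members tested in C1q macrophages (3.39% of all genes), 9 of 43 in neutrophils (2.77%), 3 of 51 in monocytes (1.16%) and 3 of 54 in NK cells (1.16%). It was 0 members in Cd209a dendritic cells, CD8 T cells and regulatory T cells, against 1.55%, 2.1% and 2.71% of all genes. DESeq2 called 0 members in 6 gates and 1, Stmn1, in C1q macrophages (0.037% of 8101 genes).

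In C1q macrophages both sums were lower in the 2 Lyve1CreCsf1rfl/fl tumors. Their S phase sum was 3.30 and 4.67 UMIs per 10000 in the Csf1rfl/fl tumors and 1.57 and 2.15 in the Lyve1CreCsf1rfl/fl tumors, and their mitosis sum 4.67 and 5.48 against 3.58 and 2.41. The genotypes did not overlap in either sum, and did not without the cells called doublets (S phase 3.39 and 4.09 against 1.55 and 2.16, mitosis 4.38 and 4.45 against 2.39 and 2.39). All 12 S phase members that passed the filter had negative fold changes (median -1.28), as did 21 of 23 mitosis members (median -0.86), against a median of 0.01 over all genes. A member scarce in the Lyve1CreCsf1rfl/fl tumors could pass the filter through the Csf1rfl/fl tumors alone, which held more cells in this gate. These signs, and the count of members under an unadjusted p of 0.05, are therefore not support for a difference. Stmn1 was at 0.745 and 0.719 against 0.164 and 0.105, a log2 fold change of -2.33 (unadjusted p = 2.34e-05, adjusted p = 0.189), and Pclaf at 0.362 and 0.571 against 0.101 and 0.148 (-1.89, adjusted p = 0.529). With the run as a replicate block, Stmn1 (-2.34, adjusted p = 0.00957) and Pclaf (-1.85, adjusted p = 0.0347) were called, 2 of 37 members tested against 0.272% of 8101 genes, and they were singled out after their values were seen. In these sums alone fewer cells in cycle and less RNA per cycling cell cannot be told apart. The 4 tumors gave 479, 327, 166 and 86 cells, and the top 10% of them held 71.1%, 80.7%, 65.4% and 52.6% of the mitosis UMIs. The highest cell of each held 127, 253, 100 and 26 mitosis UMIs. Of 18 lists of cell type markers, 8 did not overlap between the genotypes in this gate, 5 higher and 3 lower in the Lyve1CreCsf1rfl/fl tumors. Markers of Cd209a dendritic cells, among them H2-Aa, H2-Ab1 and Cd74, which macrophages also use, were summed at 55.9 and 72.3 against 108.6 and 101.5 UMIs per 10000, monocyte markers at 31.5 and 38.5 against 46.9 and 38.7, and the C1q macrophage markers themselves at 82.4 and 61.7 against 55.5 and 60.1. Of the lymphocyte lists, NK cell markers were lower without overlap, at 0.136 and 0.0783 against 0.0379 and 0.0211, CD8 T cell markers (0.0432 and 0.0507 against 0.0632 and 0.148) and regulatory T cell markers (0.156 and 0.193 against 0.228 and 0.232) were higher without overlap, and summed T cell markers overlapped, at 0.339 and 0.332 against 0.291 and 0.802. Of the cells in this gate, 13.4% and 9.17% against 14.5% and 4.65% were called doublets. Their part in the difference was not tested. Without any 1 tumor 2 to 4 members were called, all lower (0.191% to 0.715% of all genes), 4 with no filter on low counts (0.238%) and 1 without doublets (0.0388%), Stmn1 each time among them. Counted by cells, the result depended on the limit. At least 5 mitosis UMIs were found in 8.77% and 9.48% against 3.01% and 2.33% of the cells unthinned, and after thinning to 2000 UMIs in 3.17% and 1.94% against 0.676% and 1.24%. The genotypes did not overlap in either share, but the thinned ones rest on 14 of 442 and 6 of 309 against 1 of 148 and 1 of 81 cells, and their exact 95% binomial intervals overlapped. At 1 UMI, which also marks many neutrophils, the thinned shares of the genotypes overlapped. At least 1 S phase UMI was found in 29.6% and 29.8% against 18.2% and 39.5% of the cells, and at least 1 mitosis UMI in 32.8% and 32.04% against 32.4% and 25.9%.

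In the other 6 gates tested the genotypes overlapped in all sums except the S phase sums of neutrophils and monocytes and the mitosis sum of regulatory T cells (35.02 and 41.3 against 41.8 and 44.4). In neutrophils the S phase sum was 1.58 and 1.22 against 0.947 and 0.953, and 12 of 15 S phase and 23 of 26 mitosis members tested were negative. Here too members could pass the filter through the Csf1rfl/fl tumors alone. In the run 1 Csf1rfl/fl tumor, the highest of the 4, 29.4% of neutrophils were called doublets by Scrublet, against 7.83% to 17.8% in the others. Of the neutrophils of that tumor 20.8% had a hashtag ratio under 3, against 0.705% to 3.60% in the others, so their tumor is less certain. C1q macrophage markers in the neutrophil gate were at 12.5 and 4.38 against 2.87 and 1.198 UMIs per 10000, 1 of 7 marker lists of 18 that did not overlap there, and their part in the difference was not tested. Without the cells called doublets none of these 3 sums kept the genotypes apart. The S phase sum was then 0.696 and 1.10 against 0.657 and 0.853 in neutrophils, and 1.812 and 1.817 against 1.807 and 2.57 in monocytes. The mitosis sum of regulatory T cells was 39.6 and 45.6 against 42.5 and 46.5. In that gate 4 of 18 marker lists were lower without overlap in the Lyve1CreCsf1rfl/fl tumors and 1, T cell markers, was higher. Among the lower ones were C1q macrophage markers, at 2.32 and 1.40 against 0.692 and 0.394, and Cd209a dendritic cell markers, at 22.2 and 17.9 against 11.2 and 13.5. The part of these markers in the difference was not tested. In CD8 T cells 31 of 35 mitosis members were negative with a median of only -0.14, and in regulatory T cells 29 of 35 were positive with a median of 0.16. With the run as a replicate block, Top2a was called in regulatory T cells (0.36, adjusted p = 0.0440), 1 of 54 members against 1.51% of 9572 genes, at 2.72 and 4.46 against 3.90 and 5.20 UMIs per 10000. Without the run 2 Csf1rfl/fl tumor 3 members, Pclaf, Cenpe and Stmn1, were called lower in neutrophils (1.22% of all genes), and without the run 1 Csf1rfl/fl tumor Ube2c, Hmmr and Cks1b were called higher in NK cells (0.115%). In NK cells the mitosis sum was 20.7 against 26.7 in run 1 and 29.5 against 16.8 in run 2, opposite in direction.

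In the 5 gates with no test, 3 of the 10 sums did not overlap between the genotypes, again a description and not a test. The mitosis sum of cDC1 was 21.4 and 24.8 against 13.6 and 12.3 in the Lyve1CreCsf1rfl/fl tumors, the S phase sum of mature dendritic cells 2.88 and 2.20 against 2.02 and 1.76, and that of plasmacytoid dendritic cells 1.65 and 1.76 against 1.81 and 2.36. In cDC1 29.1% of the cells of the run 1 Csf1rfl/fl tumor were called doublets, against 4.08% to 8.0% in the others. Without doublets the first 2 sums overlapped (12.6 and 24.6 against 14.1 and 13.1 in cDC1, 2.26 and 1.96 against 2.08 and 1.75 in mature dendritic cells) and the third did not (1.54 and 1.82 against 1.86 and 2.25).

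**Figure D5:**
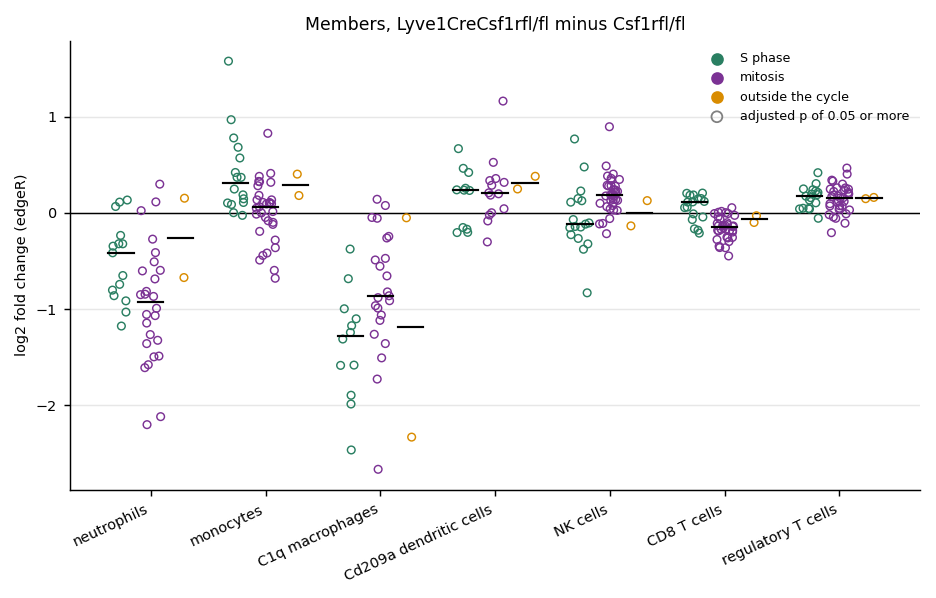
log2 fold changes (edgeR) of members that passed the filter, Lyve1CreCsf1rfl/fl minus Csf1rfl/fl, in 7 gates, with S phase, mitosis and outside-cycle members apart. All points are open since none had an adjusted p under 0.05, and bars are medians, which lie at -1.28 and -0.86 in C1q macrophages, 0.11 and -0.14 in CD8 T cells, and 0.17 and 0.16 in regulatory T cells.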

How the data were processed

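CD45+ cells were sequenced with 10x Chromium 3′ v2 chemistry in 2 runs of 2 pooled tumors. Per the labels the reads were processed with Cell Ranger 6.0.1 on mm10 and with Seurat. The authors deposited raw UMI counts per cell, raw hashtag counts and a corrected expression score for the cells they kept as singlets with under 5% mitochondrial reads. They had left out 4 clusters held almost only by the run 2 Lyve1CreCsf1rfl/fl tumor. The paper describes these as lymphocytes high in ribosomal genes and dropped their cells from every sample, so the lymphocyte gates here lack them. Of 53361 barcodes in the raw table the 28429 named in the corrected table were used (53.3%), and its score values themselves were not used. In the kept cells 60 barcodes occurred in both runs. Tumors were assigned by the higher hashtag of the run after a centred log ratio, and 725 cells had a ratio under 3.

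The members and gene lists were chosen with earlier results of these data known, and gate limits after marker sums were seen. Gates resting on single UMIs depend on depth. UMIs were summed per gate and tumor and tested with edgeR 4.0.16 (TMM, filterByExpr, quasi-likelihood F test, adjusted p under 0.05), with tumor as block between gates. Alternatives were DESeq2 1.42.0, DESeq2 size factors, no filter, stricter gates, hashtag ratio, Scrublet (scanpy 1.11.5) and leaving out each tumor. Doublets between tumors had been removed by the authors' hashtag calls, and those within a tumor were left in the main values. Named in each comparison were up to 6 rises and 6 falls among members called and moving 1 way in all tumors, up to 4 genes of each other list, and Mki67, Top2a, Cdk1, Ccnb1, Pcna, Mcm5 and Stmn1 throughout. The run pairs the tumors of both genotypes, as the labels say, and deviations of same-run tumors from their genotype mean correlated at 0.382 to 0.567 in the 7 gates. Tests were checked on simulated counts. Intervals cover counting error only.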

Additional observations from a re-analysis of the deposited data

Results flagged for a closer look

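The summed members differed between the genotypes in opposite directions in different gates. The sums named here are those whose difference had the same sign in both runs. Their agreement between runs follows from that choice and is not support. With 2 runs, signs often agree where genotypes do not differ. The other sums of the gates tested had opposite signs in the 2 runs. For S phase these were Cd209a dendritic cells, NK cells and CD8 T cells. For mitosis they were neutrophils, monocytes, Cd209a dendritic cells and NK cells. The S phase sum differed (Lyve1CreCsf1rfl/fl minus Csf1rfl/fl, UMIs per 10000) by -0.45 in neutrophils and -2.125 in C1q macrophages, but by 0.446 in monocytes and 2.581 in regulatory T cells. The mitosis sum differed by -2.086 in C1q macrophages and -3.905 in CD8 T cells, but by 4.928 in regulatory T cells. In CD8 T cells the difference was -0.215 in run 1 and -7.60 in run 2, and the genotypes overlapped. Without the cells called doublets by Scrublet, the S phase difference was -0.141 in neutrophils, and in monocytes it was -0.0054 in run 1 and 0.750 in run 2, so that it no longer had 1 sign. The mitosis difference in regulatory T cells was 1.88 without them. The other differences named kept their signs in both runs, as did this one. The difference between gates was not tested, and in the test as reported, without the run as a block and with all tumors and the filter on low counts, no single member passed between genotypes in these gates. Some members passed under other settings.

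Cells outside the 12 gates also held mitosis members. T cells that met neither the CD4 nor the CD8 gate were at 24.768 UMIs per 10000, cells with markers of several lineages at 15.268 (70.8% of them called doublets by Scrublet, on average over tumors), ungated cells at 13.328 and other phagocytes at 3.175.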

How the results depend on the processing

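No edgeR or DESeq2 fold change of a gene called and named between gates, or between cycling and non-cycling cells, changed sign under these settings. Sizes, the order of gates and the split of some calls depend on the processing. Between genotypes, signs were compared only between the main fit and the fit with the run as a replicate block, for Mki67, Top2a and Stmn1. Signs in the fits that leave out a tumor are not given. In Cd209a dendritic cells Mki67 changed sign. Its log2 fold change was 0.00106 in the main fit and -0.144 with the run as a replicate block. Between neutrophils and monocytes the calls ranged from 4 higher and 0 lower, without the run 1 Lyve1CreCsf1rfl/fl tumor, to 4 and 11 under a stricter gate, and in UMIs per 10000 Smc4 was lower on average in neutrophils. With each cell weighted equally, the S phase sum was 3.17 in Cd209a dendritic cells, 9.49 in NK cells, 14.2 in CD8 T cells and 13.5 in regulatory T cells, and the mitosis sum 4.45, 14.6, 26.1 and 28.3 in these gates, 11.4 in Foxp3-negative CD4 T cells and 31.3 in tumor or stromal cells, so that CD8 T cells passed regulatory T cells in the S phase sum. Stricter gates gave 4.73 (S phase) and 11.6 (mitosis) in mature dendritic cells and mitosis sums of 23.5 in Foxp3-negative CD4 T cells and 45.4 in regulatory T cells. This setting multiplied most lower limits on markers by 2, also those by which cells of other lineages are left out. Cells with weaker markers of another lineage could thus enter a gate, and their part in these values was not tested. Without doublets the S phase sum of neutrophils was 0.826 and the mitosis sum of Cd209a dendritic cells 3.87. Shares of cells with a mitosis UMI at a depth of 1000, with at least 2 UMIs and with at least 5 were 22.6%, 10.5% and 0.971% in neutrophils, 39.2%, 35.9% and 21.0% in cDC1, 41.3%, 36.2% and 15.8% in NK cells, 56.6%, 51.2% and 28.4% in CD8 T cells, and 62.9%, 59.5% and 33.9% in regulatory T cells (83.4% without doublets at 1 UMI).

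DESeq2 called 21 members between regulatory and Foxp3-negative CD4 T cells, 2 between regulatory and CD8 T cells, 9 between CD8 T cells and NK cells, 5 between C1q macrophages and monocytes, 5 between neutrophils and monocytes, 1 between genotypes in C1q macrophages, and 37 and 8 other cycle genes in cycling CD8 and regulatory T cells. With no filter the counts were 39 (CD8 T and NK cells), 14 (neutrophils and monocytes), 4 (genotypes in C1q macrophages) and 11 (cycling C1q macrophages). Stricter gates gave 12 (regulatory and Foxp3-negative CD4 T cells), 10 (regulatory and CD8 T cells) and 15 (neutrophils and monocytes). Without doublets they were 8 (regulatory and CD8 T cells), 34 (CD8 T and NK cells) and 1 (genotypes in C1q macrophages). A limit of 4 UMIs gave 4 in cycling C1q macrophages, and cells of 3000 to 8000 UMIs gave 37 in cycling regulatory T cells. Between gates and in the cycling split, the share of all genes called under these settings is not given. A changed count may thus be a change over all genes. The causes were not tested.

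Leaving out 1 tumor, the counts ranged from 16 to 32, 3 to 10, 8 to 36, 8 to 29, 45 to 52 and 4 to 11 in the 6 pairs of gates as listed (regulatory with Foxp3-negative CD4, regulatory with CD8, CD8 with NK, C1q macrophages with monocytes, cDC1 with mature dendritic cells, neutrophils with monocytes). For genotypes they were 0 to 3 in neutrophils, 2 to 4 in C1q macrophages and 0 to 3 in NK cells, and for cycling cells 45 to 65 (CD8), 28 to 46 (regulatory) and 0 to 1 (C1q macrophages). A lone tumor in a genotype is then assumed to vary like the others. With the run as a replicate block, 2 members were called in C1q macrophages and 1 in regulatory T cells, and it changed no other count. Depth limits single-cell shares in neutrophils, where 2555 of 6033 cells were too shallow.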
